A study of Homo sapiens with 2 samples.

Results

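The genes described here are the initiation factors (symbols EIF and a digit) and elongation factors (EEF and a digit) of cytosolic translation, with a closer look at the paralogues EEF1A2 and EEF1A1. They were chosen by symbol alone, without the kinases of the EIF2AK family, pseudogenes, and symbols with a hyphen, which left 63 of the 53737 genes in the tables. EIF4EBP1, EIF4EBP2 and EIF4EBP3 end like pseudogene symbols but are protein-coding in RefSeq, and were kept. RNA came from SK-ES-1, an established Ewing sarcoma line with wild-type genotype per the labels, in 2 libraries: 1 of slow-cycling cells (SCCs) and 1 of non-slow-cycling cells (non-SCCs). The headers call the SCCs column LRC and the other non-LRC, terms left unexplained in the sources used here, which also do not say how the cells were separated. Because each group had 1 library, no difference below has a replicate check, no error can be attached to a value, and no p-value was computed. All 6 Ewing sarcoma markers examined were present, from 95.3 to 294 per-million units in SCCs and from 99.4 to 288 in non-SCCs.

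Levels are in per-million units, obtained by undoing the log2 step of the authors' values. They were taken to be scaled by transcript length, as TPM values are, which the sources do not state. A ratio is the log2 of (level + 1) in SCCs minus that in non-SCCs, so a positive ratio means higher in SCCs. The read depth of both libraries is unknown, and in bulk RNA fewer cells of a type and less RNA per cell cannot be told apart.

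Translation starts when eIF2 brings the initiator tRNA to the small ribosomal subunit, with eIF1, eIF1A, eIF3 and eIF5 bound to it. The eIF4F complex (the cap-binding protein eIF4E, the scaffold eIF4G and the helicase eIF4A) loads that subunit onto the capped mRNA, and eIF5B joins the large subunit. During elongation eEF1A carries each aminoacyl-tRNA to the ribosome, the eEF1B complex recharges it with GTP, and eEF2 moves the ribosome along the mRNA. Many mRNAs of this machinery begin with a terminal oligopyrimidine tract, a C followed by a run of pyrimidines at the cap, through which mTORC1 and the protein LARP1 control their translation.

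That tract is visible in the sequence at the start site of several of the most abundant members. The windows shown hold 15 bases before and 15 bases from the start annotated by RefSeq (GRCh38.p14), read 5′ to 3′ along the gene, with the tract in capitals. The first 6 carry a tract, and include abundant elongation and initiation factors as well as EIF4A2. The last 3 have none at the start shown: EIF5A, the abundant member with the lowest ratio, and EIF1 and EIF1B, which were among the higher ones.
EEF1A1 (chr6:73521018-73521047, minus strand): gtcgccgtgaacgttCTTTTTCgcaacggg
EEF2 (chr19:3985449-3985478, minus strand): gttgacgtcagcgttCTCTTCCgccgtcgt
EEF1B2 (chr2:206159880-206159909, plus strand): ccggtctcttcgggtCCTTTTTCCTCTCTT
EIF4B (chr12:53006441-53006470, plus strand): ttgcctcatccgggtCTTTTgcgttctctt
EIF3F (chr11:7987322-7987351, plus strand): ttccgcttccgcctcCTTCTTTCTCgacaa
EIF4A2 (chr3:186783562-186783591, plus strand): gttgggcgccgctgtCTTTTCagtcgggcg
EIF5A (chr17:7306984-7307013, plus strand): atgggtgggaacccgaccacactagcgcgc
EIF1 (chr17:41688870-41688899, plus strand): aggcaccgcccctctgccccagtcactgag
EIF1B (chr3:40309692-40309721, plus strand): tcggccattttgtgcgagaagccgcagcgc

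A search for a C followed by at least 4 pyrimidines, beginning within 3 bases of an annotated start on the gene's strand, found a match in 17 of the 50 members with an entry in the promoter table, or 34.0%. The same search matched 4374 of all 27305 genes in the table and 19.4% of the 9846 tested genes with an entry. EEF1B2 has a second annotated start without a tract, EIF5A has several starts and none matched, and EEF1G was not matched either, its start reading ACTTTG. A match describes these letters, and its absence says only that they are not at the annotated start. EEF1A2 is among the 13 members without an entry. Over the whole window of 300 bases, on either strand, the E box CACGTG was found in 24.0% of members against 12.7% of tested genes, and the GC box GGGCGG in 78.0% against 76.7%.

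As a group the translation factors were close to equal in SCCs and non-SCCs, with EEF1A2 the single member beyond 1.5-fold. Genes reaching 1 unit in either library, called tested genes although no statistical test was possible, numbered 13444 and included 60 of the 63 members. For the other 3 members, EIF4A1, EIF4E and EIF4E1B, both libraries gave 0. Of the 60, 21 had a ratio above 0 and 39, or 65.0%, a ratio below 0, where 43.8% of all tested genes were below 0. Their median ratio was -0.06, against 0.03 over all tested genes.

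Abundant genes as a whole had lower ratios than scarce ones. Of the 40 members with a mean of 64 units or more, 28 were below 0, or 70.0%, beside 65.9% of the 2712 tested genes in that range. The median ratio of these 40 was -0.07 and that of the 2712 genes -0.06. Measured against the median ratio of tested genes of like level, 27 members were above 0 and 33 below, with a median of -0.01.

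Only 2 members had a ratio of at least 0.32, EEF1A2 and EEF1AKMT1, where 13.5% of tested genes did, and 2 had a ratio of -0.32 or less, EIF5A and EIF5AL1, where 4.99% did. That leaves 56 of 60 between these limits, or 93.3%, beside 81.5% of all tested genes. These shares are not matched for level. A mean of 64 units or more was reached by 40 of the 60 members and 2712 of the 13444 tested genes. In that range 2.99% of tested genes had a ratio of -0.32 or less, and 1 member did. Under 64 units 16.3% of tested genes had a ratio of at least 0.32, as did 2 of 20 members. Which members pass depends on the scaling, except for EEF1A2 and EIF5AL1, which passed under each scaling tried. Relative to genes of like level, EEF1AKMT1 was at 0.24 and EIF5A at -0.24, inside the limits, whereas EIF4A2 (0.37), EIF1 (0.34) and EIF1B (0.34) passed. With the median of all tested genes set to 0, EEF1AKMT1 was at 0.29 and no longer passed, and EEF1E1 passed at -0.34. At 1.5-fold the members counted 1 higher and 0 lower, against 5.38% and 1.41% of tested genes. The 63 members summed to 24740 units in SCCs and 24703 in non-SCCs, 2.52% and 2.51% of all units.

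**Figure D1:**
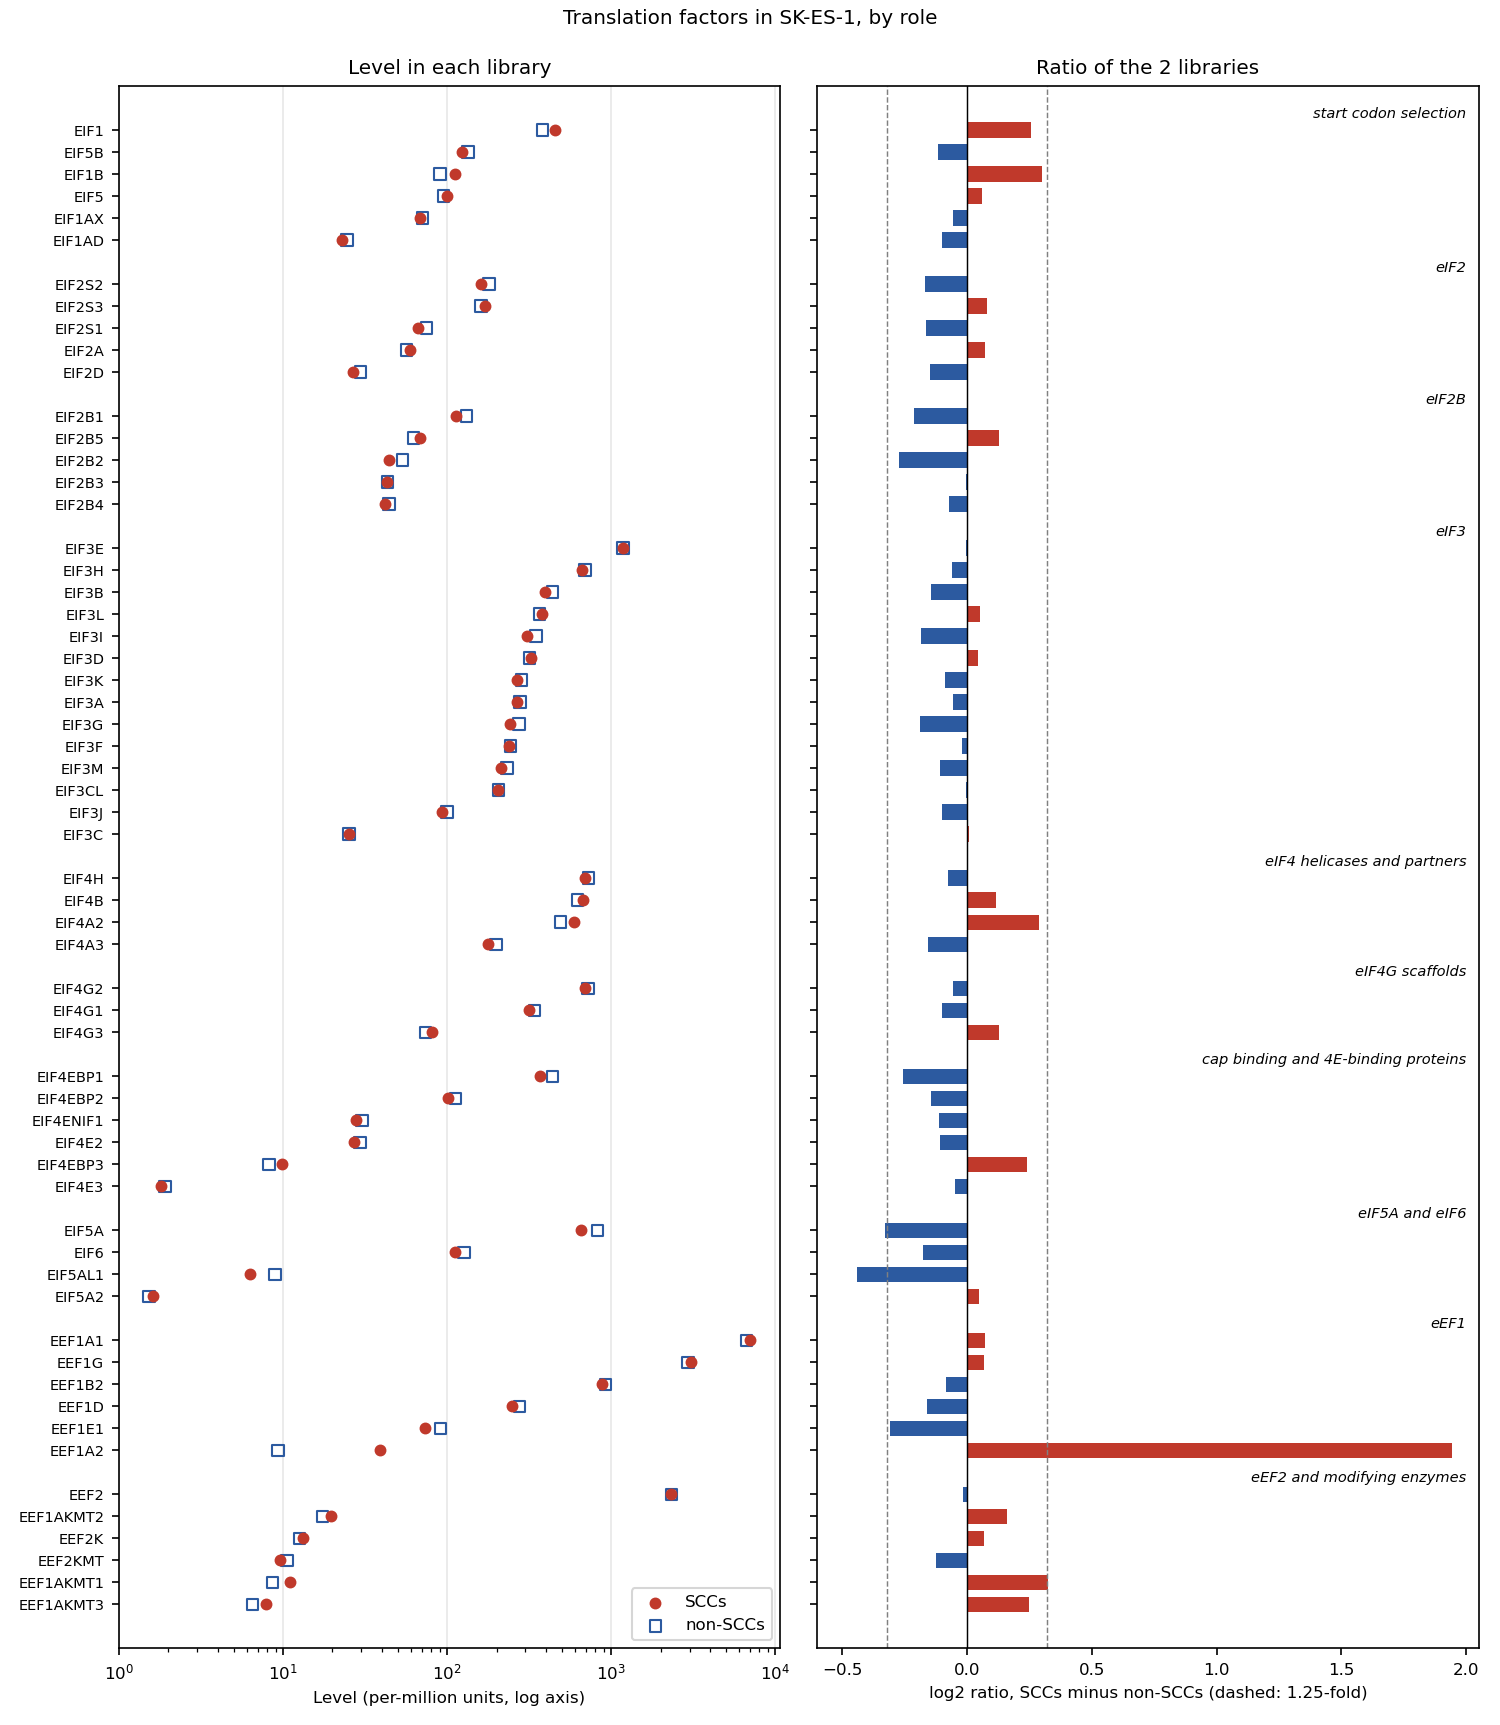
Levels of 59 translation factors by role (left; per-million units on a log axis; filled circles, SCCs; open squares, non-SCCs) and their log2 ratios, SCCs minus non-SCCs (right; dashed lines at 0.32 on either side of 0). The 2 marks of a gene nearly overlap in most rows, and EEF1A2 stands out with a ratio of 1.94.

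**Figure D2:**
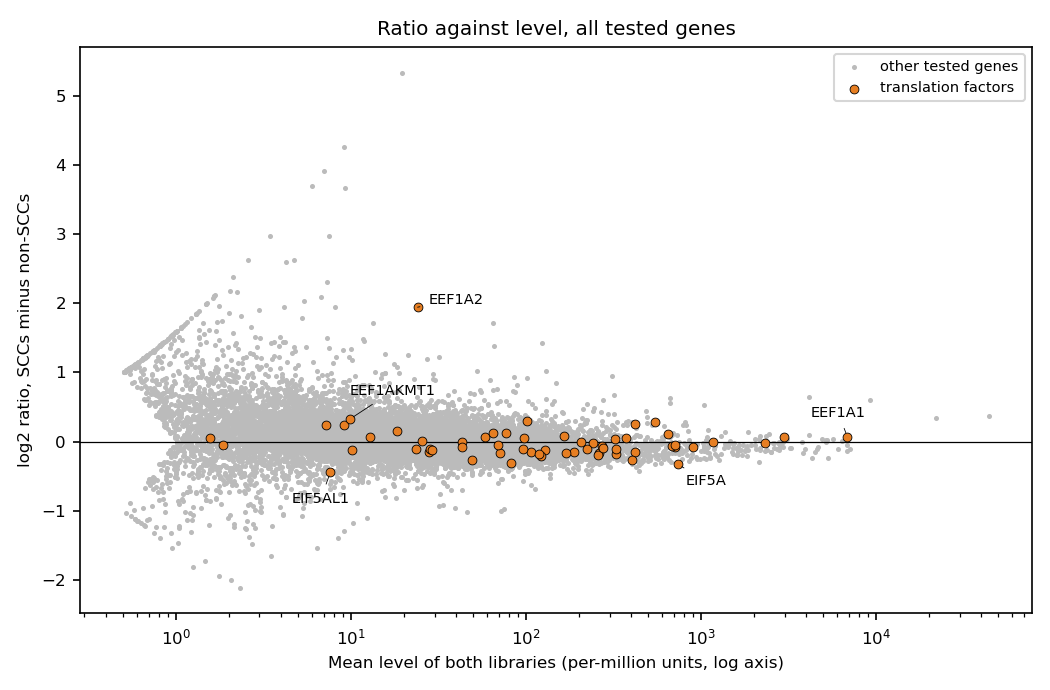
Log2 ratio, SCCs minus non-SCCs, against the mean level of both libraries (per-million units, log axis) for all tested genes (grey) and the translation factors (orange), without EIF1AY. Ratios scatter more widely at low levels; EEF1A2 lies at 1.94 and EEF1A1, at the far right, at 0.07.

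The eEF1A paralogues differed in both level and ratio. EEF1A2 (chromosome 20, 63488014 to 63499083, GRCh38), the form typical of neurons and muscle, was at 38.7 units in SCCs, against 9.32 in non-SCCs, a ratio of 1.94 and 4.15-fold as a plain quotient of levels. EEF1A1 (chromosome 6, 73515750 to 73521032), the form that most dividing cells use, was at 7021 units in SCCs, against 6678 in non-SCCs, a ratio of 0.07. EEF1A2 was thus higher in SCCs by far more than EEF1A1, the ratios differing by 1.87, and it ranked 26th highest of the 13444 tested genes.

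EEF1A1 supplied nearly all eEF1A transcripts in both libraries. EEF1A2 made up 0.548% of the pair in SCCs and 0.139% in non-SCCs, so EEF1A1 exceeded it 181-fold in SCCs and 716-fold in non-SCCs. In units, EEF1A2 was 29.4 higher in SCCs and EEF1A1 342 higher, and the sum of the pair was 7059 in SCCs and 6688 in non-SCCs. None of the 43 EEF1A1 pseudogenes had a value above 0. The coding sequences of the paralogues are 78.0% identical in GENCODE release 29, 1386 and 1389 bases long for EEF1A1 and EEF1A2.

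Of the 24 other tested genes within 500 kb of EEF1A2, 8 had a ratio above 0 and 16 below. The ratios ran from -1.10, for the microRNA gene MIR647, to 0.60, for ABHD16B at 2.31 units in SCCs and 1.18 in non-SCCs. The next tested genes at higher coordinates, PPDPF (0.42), HELZ2 (0.45) and GMEB2 (0.13), were above 0. HELZ2 was near the lower limit, at 1.58 units in SCCs and 0.884 in non-SCCs. Just beyond GMEB2, MHENCR (-0.38) and STMN3 (-0.23) were below 0. ARFGAP1, the next at lower coordinates, was at -0.03. An effect shared by the region was not tested. Neuron and muscle markers were read beside EEF1A2, since that gene is typical of those tissues. Of 6 neuron markers, 4 were tested and 2 listed at 0 in both libraries, RBFOX3 and CAMK2A. The 6 summed to 96.4 units in SCCs and 76.1 in non-SCCs, and of the 4 tested, 3 had a ratio above 0 and 1 below. STMN2 was at 9.40 in SCCs and 4.33 in non-SCCs (0.97), SYT1 at 65.1 in SCCs and 50.2 in non-SCCs (0.37), SNAP25 at 8.06 in SCCs and 7.40 in non-SCCs (0.11), and ELAVL4 at 13.8 in SCCs and 14.3 in non-SCCs (-0.04). Of 6 skeletal muscle markers none was tested, MYOD1, MYOG, DES and CKM were listed at 0 in both libraries, and the list summed to 0.668 units in SCCs and 0.441 in non-SCCs. Fibroblast and pericyte markers, 3 of 6 tested, summed to 26.8 units in SCCs and 19.3 in non-SCCs, and PDGFRA was listed at 0. Leukocyte markers, 3 of 5 tested, summed to 15.1 units in SCCs and 9.66 in non-SCCs, with the defining PTPRC and CD3E listed at 0. The 3 endothelial and 4 erythroid markers were listed at 0 in both. The part of the marker genes in the EEF1A2 value was not tested.

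**Figure D3:**
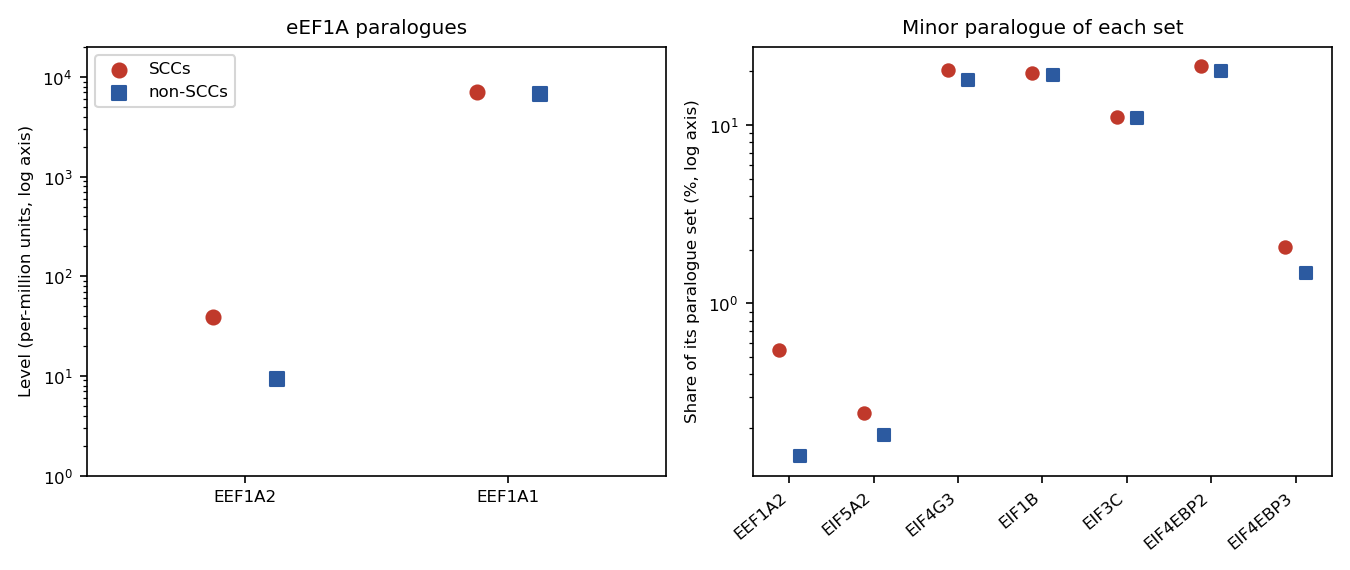
Left, levels of EEF1A2 and EEF1A1 (per-million units, log axis; circles, SCCs; squares, non-SCCs). Right, share of 7 less abundant paralogues in their sets (percent, log axis): EEF1A2 was at 0.548% in SCCs and 0.139% in non-SCCs, and EIF1B was at 19.6% in SCCs and 19.1% in non-SCCs.

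The other parts of eEF1 differed little. EEF1G, a structural subunit of the exchange complex eEF1B, was at 3066 units in SCCs and 2928 in non-SCCs, a ratio of 0.07. The exchange subunit EEF1B2 was at 872 in SCCs and 925 in non-SCCs (-0.08), and the other exchange subunit, EEF1D, at 248 in SCCs and 277 in non-SCCs (-0.16). The carrier EEF1A1 and EEF1G were thus slightly higher in SCCs and both exchange subunits slightly lower, although relative to genes of like level EEF1B2 was at 0.0027. EEF1E1, which despite its symbol is a scaffold of the aminoacyl-tRNA synthetase complex, was at 73.0 units in SCCs and 90.7 in non-SCCs. Its ratio of -0.31 lay just inside the limit of 0.32 in size, with EEF1AKMT1 just outside it at 0.33. The read-through model EEF1E1-BLOC1S5, which overlaps it and can take part of its reads, was at 9.88 in SCCs and 9.41 in non-SCCs.

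EEF2, the translocase, was at 2301 units in SCCs and 2329 in non-SCCs, a ratio of -0.02. EEF2K, the kinase that inhibits it, was low in both, at 13.2 in SCCs and 12.6 in non-SCCs. EEF2KMT, which methylates eEF2, was at 9.59 in SCCs and 10.6 in non-SCCs. The 3 members named EEF1AKMT, enzymes that methylate lysines of eEF1A, were low and above 0 in ratio. METTL13, which also methylates eEF1A but is no member by its symbol, was at 47.0 in SCCs and 49.9 in non-SCCs (-0.09). EEF1AKMT1 (chromosome 13, 20728731 to 20773961) was at 11.1 units in SCCs and 8.64 in non-SCCs, a ratio of 0.33. EEF1AKMT2 was at 19.5 in SCCs and 17.3 in non-SCCs (0.16), and EEF1AKMT3 at 7.89 in SCCs and 6.49 in non-SCCs (0.25). At such levels the ratios of tested genes scatter widely, and 16.3% of those under 64 units had a ratio of at least 0.32.

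Factors that select the start codon had ratios on both sides of 0. EIF1, which keeps the scanning ribosome from starting at the wrong codon, was at 457 units in SCCs and 382 in non-SCCs (0.26). Its close paralogue EIF1B was at 112 in SCCs and 90.5 in non-SCCs (0.30). Both were thus higher in SCCs by similar ratios, and EIF1B held 19.6% of their sum in SCCs and 19.1% in non-SCCs. Their coding sequences are 82.0% identical. EIF1AX, the X-linked gene of eIF1A, was at 68.1 in SCCs and 70.8 in non-SCCs (-0.05). The Y-linked copy EIF1AY was tested and is counted, but its level is not given. EIF5, the GTPase activator of eIF2, was at 99.2 in SCCs and 95.2 in non-SCCs (0.06), and EIF5B, the GTPase of subunit joining, at 123 in SCCs and 134 in non-SCCs (-0.12). EIF1AD, an eIF1A-domain protein, was at 22.8 in SCCs and 24.4 in non-SCCs.

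The subunits of eIF2 differed in the sign of their ratio. The alpha subunit EIF2S1, whose phosphorylation shuts initiation down, was at 66.6 units in SCCs and 74.7 in non-SCCs (-0.16). The beta subunit EIF2S2 was at 159.8 in SCCs and 179.9 in non-SCCs, a ratio of -0.17. The gamma subunit EIF2S3, which binds GTP and the tRNA, was at 169.8 in SCCs and 160.6 in non-SCCs (0.08). EIF2A, an alternative initiator tRNA factor, had a ratio of 0.07, and EIF2D, which can recycle or deliver tRNA, -0.15.

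eIF2B, the complex of 5 subunits that reloads eIF2 with GTP and is the target of the integrated stress response, spanned ratios from -0.27 to 0.13. EIF2B2 (beta) was at 44.2 in SCCs and 53.5 in non-SCCs, and EIF2B1 (alpha) at 113 in SCCs and 131 in non-SCCs, a ratio of -0.21. The catalytic EIF2B5 (epsilon) was at 68.0 in SCCs and 62.2 in non-SCCs. Hence 4 of 5 subunits were below 0, EIF2B3 barely so (-0.0025), and the catalytic one above, where 43.8% of all tested genes were below 0. The split was the same relative to genes of like level. EIF2B3 (gamma), at 43.2 in SCCs and 43.3 in non-SCCs, and EIF2B4 (delta), at 42.0 in SCCs and 44.1 in non-SCCs, differed least.

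eIF3, the scaffold of the initiation complex, contributed 14 members, of which 3 were above 0 and 11 below, with a median ratio of -0.06, and none reached 0.32 in size. Measured against genes of like level the split was 7 and 7, and the median 0.01. Although the complex holds its subunits in equal number, their transcripts spanned a wide range, led by EIF3E at 1173 units in SCCs and 1177 in non-SCCs. The loosely attached EIF3J was at 92.8 in SCCs and 99.6 in non-SCCs, so EIF3E exceeded it 12.6-fold in SCCs and 11.8-fold in non-SCCs.

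The lowest eIF3 ratios, picked out after their values were seen, were those of EIF3G, EIF3I and EIF3B, which sit together in the mobile module of the complex. EIF3G was at 241 units in SCCs and 275 in non-SCCs (-0.19), EIF3I at 305 in SCCs and 347 in non-SCCs (-0.18), and EIF3B at 396 in SCCs and 438 in non-SCCs (-0.15). Their binding partner EIF3A was at 266 in SCCs and 277 in non-SCCs (-0.06). The highest were EIF3L, at 379 in SCCs and 366 in non-SCCs (0.05), and EIF3D, which can itself bind the cap, at 326 in SCCs and 317 in non-SCCs (0.04). EIF3H, EIF3F, EIF3K and EIF3M lay between -0.11 and -0.02.

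EIF3C and EIF3CL are copies on chromosome 16 whose coding sequences differ only by a gap of 3 bases, so the division of reads between them is uncertain. EIF3CL was at 205 units in both libraries and EIF3C at 25.4 in SCCs and 25.3 in non-SCCs. Their sum was 230.5 in SCCs and 230.7 in non-SCCs.

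Among the eIF4 helicases and their partners, EIF4A2 had the highest ratio. EIF4A2 (chromosome 3, 186783577 to 186789897) was at 596 units in SCCs and 489 in non-SCCs, a ratio of 0.29. EIF4B, which stimulates the helicase, was at 676 in SCCs and 624 in non-SCCs (0.12), and its relative EIF4H at 689 in SCCs and 725 in non-SCCs (-0.07). EIF4A3, a helicase of the exon junction complex rather than of initiation, was at 179 in SCCs and 199 in non-SCCs (-0.15).

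EIF4A1, the main initiation helicase, was listed at 0 in both libraries, while an overlapping model was abundant. The read-through model SENP3-EIF4A1 (chromosome 17, 7561992 to 7579006), which contains the whole EIF4A1 gene (7572825 to 7579006), was at 699 units in SCCs and 789.6 in non-SCCs, a ratio of -0.18. SENP3, the upstream gene, was at 47.5 in SCCs and 54.2 in non-SCCs. How reads were divided among these overlapping models is not given in the sources used here, so no level of EIF4A1 itself can be stated, and the share of EIF4A2 among the eIF4A genes cannot be given.

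EIF4E, the cap-binding protein, was likewise listed at 0 in both, and none of the read-through models examined here covers it. All 13 protein-coding genes of mitochondrial DNA were also listed at 0, so a 0 here need not mean that the RNA was absent. Why EIF4E was listed at 0 was not tested. The oocyte-type EIF4E1B was listed at 0 too. EIF4E2, a cap-binding protein that represses translation, was at 27.2 in SCCs and 29.5 in non-SCCs, and EIF4E3 was near the lower limit at 1.81 in SCCs and 1.91 in non-SCCs.

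The eIF4G scaffolds kept their order. EIF4G2, which lacks the eIF4E site, was at 694 units in SCCs and 720.2 in non-SCCs (-0.05), EIF4G1 at 317 in SCCs and 339.9 in non-SCCs (-0.10), and EIF4G3 at 80.5 in SCCs and 73.5 in non-SCCs (0.13). EIF4G3 made up 20.3% of EIF4G1 plus EIF4G3 in SCCs and 17.8% in non-SCCs.

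The 4E-binding proteins hold eIF4E away from eIF4G until mTORC1 phosphorylates them. EIF4EBP1 was at 366 units in SCCs and 438 in non-SCCs (-0.26), and EIF4EBP2 at 102 in SCCs and 112 in non-SCCs (-0.14). EIF4EBP3 was at 9.90 in SCCs and 8.22 in non-SCCs (0.24), under the read-through model ANKHD1-EIF4EBP3, which was at 29.2 in SCCs and 27.9 in non-SCCs and can share its reads. The abundant 4E-binding genes were thus lower in SCCs and the scarce one higher, and the sum of the 3 was 478 in SCCs and 559 in non-SCCs. EIF4ENIF1, which carries eIF4E into the nucleus, was at 27.9 in SCCs and 30.3 in non-SCCs.

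Within the eIF5A family, EIF5AL1 and EIF5A had the lowest ratios of all members as deposited. Relative to genes of like level, EEF1E1 and EIF2B2, both at -0.28, were below EIF5A at -0.24. EIF5A (chromosome 17, 7306999 to 7312463), which carries the amino acid hypusine and relieves stalled ribosomes, was at 657 units in SCCs and 826 in non-SCCs, a ratio of -0.33. At 64 units or more, where EIF5A lies, 2.99% of tested genes had a ratio of -0.32 or less. EIF5AL1 (chromosome 10, 79512533 to 79516440), at 6.32 in SCCs and 8.93 in non-SCCs, had a ratio of -0.44. Its coding sequence matches that of EIF5A at 98.9% of aligned bases, so how reads divide between them is uncertain. EIF5A2, the tissue-restricted paralogue, was at 1.61 in SCCs and 1.52 in non-SCCs. EIF6, which keeps the large subunit from joining too early and also serves in its assembly, was at 111.6 in SCCs and 126 in non-SCCs (-0.18).

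Of 10 members listed from general knowledge as beginning with a terminal oligopyrimidine tract, 4 were above 0 and 6 below. Their median ratio was -0.01, with a range from -0.16 to 0.12. The 50 other members had a median of -0.07, and the 30 of these at 64 units or more a median of -0.10. Relative to genes of like level, the 10 had 9 members above 0 and a median of 0.08, so their direction depends on this setting. Of the 10, the start-site search matched EEF1A1, EEF1B2, EEF2, EIF4B and EIF3F, but not EEF1G. The others, EEF1D, EIF3E, EIF3H and EIF3L, are among the 13 members without an entry and could not be searched. Sorted instead by the start-site search, the 17 members with a tract had a median ratio of -0.05. The 29 tested members with an entry but no tract, EIF1AY left out, had a median of -0.07. As deposited, no grouping by the tract separated the members by more than 0.1 in median ratio. Relative to genes of like level, the median of 0.08 for the 10 stood beside -0.04 for the 50 others. In the same setting the medians were 0.03 with a matched tract and -0.06 without one.

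Genes that control eIF2 phosphorylation were read beside the factors. Of 8 genes for eIF2 kinases, their regulators and phosphatase subunits, 3 had a ratio of at least 0.32, where 13.5% of all tested genes did, and none a ratio of -0.32 or less, where 4.99% did. Their median ratio was 0.18, and 0.12 relative to genes of like level. PPP1R15A, the stress-induced phosphatase subunit that reverses eIF2 phosphorylation, was at 133 units in SCCs and 70.3 in non-SCCs (0.91). The RNA-activated kinase EIF2AK2 was at 16.4 in SCCs and 12.1 in non-SCCs (0.40), and the endoplasmic reticulum kinase EIF2AK3 at 3.49 in SCCs and 2.57 in non-SCCs (0.33). Relative to genes of like level EIF2AK3 was at 0.16 and did not pass. The constitutive phosphatase subunit PPP1R15B was at 61.0 in SCCs and 50.5 in non-SCCs (0.27), and EIF2AK1, EIF2AK4, GCN1 and IMPACT had ratios from -0.07 to 0.09.

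Of 16 genes that bind the poly(A) tail or control eIF4F, 12 were above 0 and 4 below, with a median of 0.06. The 2 with a ratio of at least 0.32 are a share close to the 13.5% of all tested genes. These were PDCD4, an inhibitor of the eIF4A helicase, at 65.2 in SCCs and 50.9 in non-SCCs (0.35), and PAIP2B, an inhibitor of poly(A)-binding protein, at 8.11 in SCCs and 5.62 in non-SCCs (0.46). With the median of all tested genes set to 0 the split was 10 and 6, and PDCD4 came just under the limit. PABPC1, the main poly(A)-binding protein, was at 1332 in SCCs and 1258 in non-SCCs.

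Enzymes that modify eIF5A and eEF2 were read beside their substrates. Of 9, 3 were above 0 and 6 below, with a median of -0.04. DOHH, which completes hypusine on eIF5A, was at 17.5 in SCCs and 21.8 in non-SCCs (-0.30), whereas DHPS, which begins it, was at 98.5 in SCCs and 95.9 in non-SCCs (0.04). DPH2, of the diphthamide pathway that modifies eEF2, was at 67.1 in SCCs and 85.7 in non-SCCs (-0.35) and was the single one with a ratio of -0.32 or less, where 4.99% of all tested genes and 2.99% of those at 64 units or more had one. Relative to genes of like level DPH2 came just inside the limit and DOHH, at -0.35, passed it, as DOHH also did with the median of all tested genes set to 0 (-0.33).

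The remaining lists held no gene with a ratio of 0.32 or more in size. Of 9 genes of termination, recycling and rescue, 2 were above 0, with a median of -0.05, or 0.0027 relative to genes of like level. The 10 mitochondrial factors had 6 above 0 and a median of 0.02, which turned to -0.01 with the median of all tested genes set to 0. Of the 4 tested genes of selenocysteine insertion and older symbols, 1 was above 0, EEFSEC, the selenocysteine elongation factor, at 23.8 in SCCs and 21.9 in non-SCCs.

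**Figure D4:**
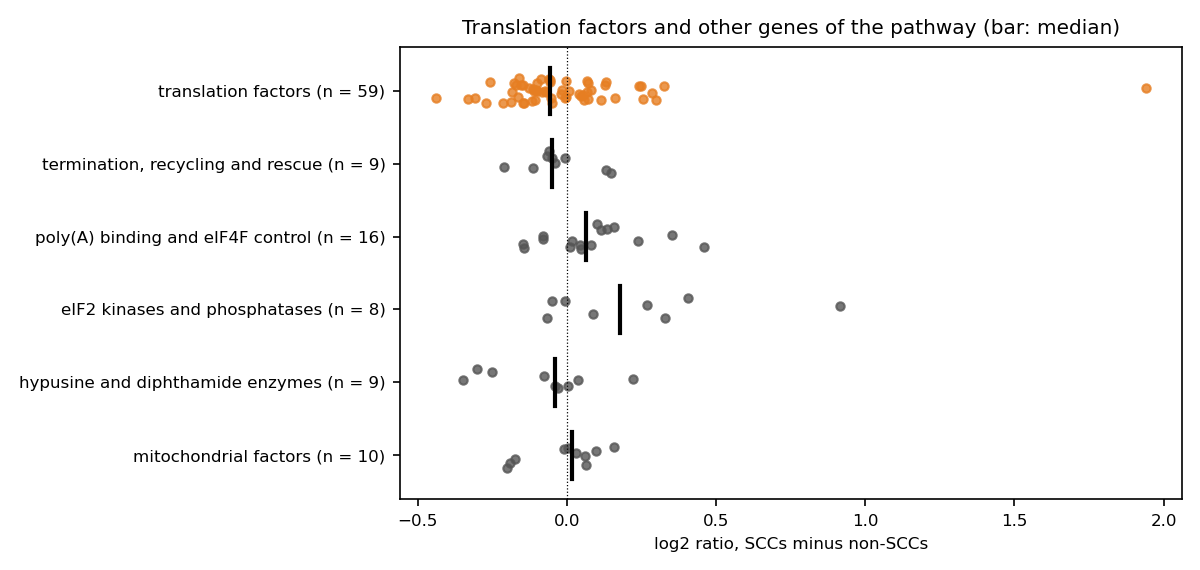
Log2 ratios, SCCs minus non-SCCs, of 59 translation factors (orange) and of 5 lists of other translation genes (grey), each point a gene and each bar the median of its row. The list of eIF2 kinases and phosphatases had the highest median, 0.18, with PPP1R15A at 0.91.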

How the data were processed

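The authors deposited 1 table per library, called normalized per the file headers, and its values were taken to be log2 values: none was negative, and after back-transformation (2 to the power of the value, minus 1) they summed to 983638 in SCCs and 984120 in non-SCCs. RNA was extracted with a phenol-based reagent and libraries came from a stranded kit for polyadenylated RNA, per the labels' protocols. Per the submitters' processing notes, reads were placed on build hg38. Which aligner, annotation and quantification tool were used is not given in the sources used here.

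Lines of 1 gene ID that differed by locus suffix (174 lines) were summed. Gene class and coordinates came from RefSeq GRCh38.p14 by gene ID, with 51252 IDs matched, all 63 members among them. Ratios used a pseudocount of 1 and no further scaling. The scale understates the difference of low genes. Genes under 1 unit in both libraries were left out of counts. Coding sequences were aligned with Biopython 1.88, and all other steps used Python 3.11.15 with pandas 2.3.3. The counting step was tested on simulated data with added shifts of 1 on the log2 scale, scored at the 1.5-fold limit. The limit of 0.32 was not tested in this way. The members, lists and call rules were chosen with earlier results of these data known. Every member is named or counted, the rule being to give both values for members with a ratio of 0.32 or more in size (the limit was set as a fold) and for the 5 most abundant, and at least the range of the others. The alternatives were other scalings, filters and pseudocounts, a correction for level in 20 bins, members with near-identical copies left out, EEF1A1 with its pseudogenes, and 2 added after seeing the data.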

Additional observations from a re-analysis of the deposited data

How the results depend on the processing

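Of 35 values recomputed under the alternatives for 6 results, 34 stayed close to the reported value, meaning within 0.1 on the log2 scale or within 1.5 times for a count or a share. The exception was the number of members with a ratio of 0.32 or more in size, 4 as reported and 2 without the members that have near-identical copies, since EIF5A and EIF5AL1 are then left out. Some of the 34 could not move. Counting EEF1A1 with its pseudogenes added only values of 0. Dropping the filter on low values admitted no member, since the 3 left out were at 0 in both libraries. The 0.1 allowed is also larger in size than the median ratio of the members, -0.06. A like count need not hold the same members. It was 5 relative to genes of like level, where EEF1AKMT1 and EIF5A no longer passed and EIF4A2, EIF1 and EIF1B did. It stayed at 4 with the median of all tested genes set to 0, where EEF1E1 passed and EEF1AKMT1 did not, and was 3 under upper quartile scaling, where EEF1AKMT1 came just under the limit. The median ratio of the members ran from -0.09 to -0.01, the ratio of EEF1A2 from 1.90 to 2.04, and the share of EEF1A2 from 0.548% to 0.562% in SCCs and from 0.139% to 0.154% in non-SCCs. Leaving out EIF4EBP1, EIF4EBP2 and EIF4EBP3, or taking SENP3-EIF4A1 in place of EIF4A1, both added after seeing the data, left both counts of members past a limit as they were, and EEF1A2 was the single member past 1.5-fold under every alternative run. Relative to genes of like level the median of eIF4G scaffolds turned from -0.05 to 0.03, and that of eEF1 from -0.01 to 0.08. With the median of all tested genes set to 0, the median of eIF4 helicases and partners turned from 0.02 to -0.01. No paired analysis was possible because each group had 1 library. With 1 library per group and unknown depth, small ratios cannot be separated from library or counting error.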
